A study of Homo sapiens with 6 samples.

Results

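The genes described are those of the nuclear RNA polymerases I, II and III and of the factors that bring polymerases I and III to their promoters. They were chosen by symbol, as every gene beginning POLR1, POLR2 or POLR3 and a further letter, together with UBTF, RRN3, TAF1A to TAF1D, BRF1, BRF2, BDP1, GTF3A and GTF3C1 to GTF3C6. Of 19775 genes measured with a probe set of their own, 48 met this rule, and each was represented by the probe set with the highest mean over all 6 arrays. POLR2J3 and POLR2M were measured only by probe sets that name other genes too. The symbol pattern also took in POLR1HASP, a transcribed pseudogene at the POLR1H locus, and POLR2J4, a transcribed pseudogene of the POLR2J family. In the counts below POLR2J4 is included with the polymerase II subunit genes, and POLR1HASP with no enzyme.

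Transcripts were measured on Affymetrix arrays in ARPE-19, a human retinal pigment epithelium cell line. Of the 6 arrays, 3 were from cells exposed to SRPIN803 at 10 µM for 4 h and 3 from cells kept in 0.1% DMSO for 4 h. All cells grew in medium with 10% fetal bovine serum, and the labels state the solvent content for the controls alone. The compound inhibits the kinases CK2 and SRPK1, and SRPK1 is known for phosphorylating SR proteins in splicing. The labels do not say whether replicates were separate cultures, so p-values speak only for the spread among these arrays, possibly a technical one. ARPE-19 is a single cell line, so the results describe that line.

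RNA polymerase I transcribes the large ribosomal RNA precursor in the nucleolus, polymerase II transcribes protein-coding genes, and polymerase III transcribes tRNAs, 5S ribosomal RNA and other short RNAs. The enzymes share a set of small subunits. Polymerases I and III have an additional pair in common, and each enzyme has its own large catalytic subunits and its own peripheral subunits. UBTF, RRN3 and the SL1 complex (TAF1A to TAF1D with TBP) recruit polymerase I, while TFIIIA, TFIIIB and TFIIIC recruit polymerase III. In growing cells polymerases I and III supply the RNA parts of the ribosome and the tRNAs, and their activity is known to follow growth signals.

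The arrays resembled each other closely. Pearson correlations across probe sets ran from 0.994 to 0.9977 for all pairs, and array medians were 5.25 to 5.27 on the log2 scale. Of 9 retinal pigment epithelium markers 8 lay above the array median of 5.26, among them MITF and OTX2, while RPE65, the defining visual cycle enzyme, was dim at 2.24 in SRPIN803 and 2.42 in DMSO (log2 means, n = 3 each). The array median is taken over all probe sets, and 7155 of 19775 genes lay below it. By gene level PMEL, TYR, RLBP1 and TTR were between the 37.1 and 45.3 percentiles, and MITF and OTX2 at 87.9 and 89.8. Of 16 markers of other cell types, 0 changed by limma at an adjusted p under 0.05 and 1 had an unadjusted p under 0.05. Above the array median lay 1 of 3 leukocyte markers (CD3E at 5.59 over all arrays), 1 of 3 endothelial markers (PECAM1 at 6.36), 2 of 4 epithelial markers (KRT8 and KRT18), 3 of 4 mesenchymal markers (COL1A1, FN1 and VIM) and 0 of 2 photoreceptor markers. PTPRC, which defines leukocytes, was at 2.82 and CDH5, which defines endothelium, at 2.65. MITF was the 1 marker of its list called, higher in SRPIN803 by 0.35 ± 0.07 (log2 change ± limma's SE, adjusted p = 0.0312). The actin control, read at its 5' end minus its 3' end, averaged -1.76 ± 0.36 in SRPIN803 and -1.77 ± 0.31 in DMSO (log2, SD, n = 3 each).

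After SRPIN803, transcripts of 4 polymerase genes were lower and 0 were higher. They were POLR1B and POLR1E of polymerase I, POLR1C of polymerases I and III, and POLR3E of polymerase III. Calls were made at an adjusted p under 0.05 in limma, with Benjamini-Hochberg adjustment over all 19775 genes. The 4 calls are 8.33% of the 48 genes, where 5.84% of all genes were called in either direction and 2.37% were called lower. At an unadjusted p under 0.05 there were 8 of the 48 (19.5% of all genes were at that level). The arrays of the groups did not overlap in 18 of the 48 (37.5%), 11 lower and 7 higher in SRPIN803, where 25.6% of all genes did not overlap, 10.4% lower and 15.2% higher. Their median log2 change was -0.01, and that of all genes was 0.02. In RMA values, which are brought to a common distribution, less of a transcript per cell and fewer cells carrying it cannot be told apart.

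**Figure D1:**
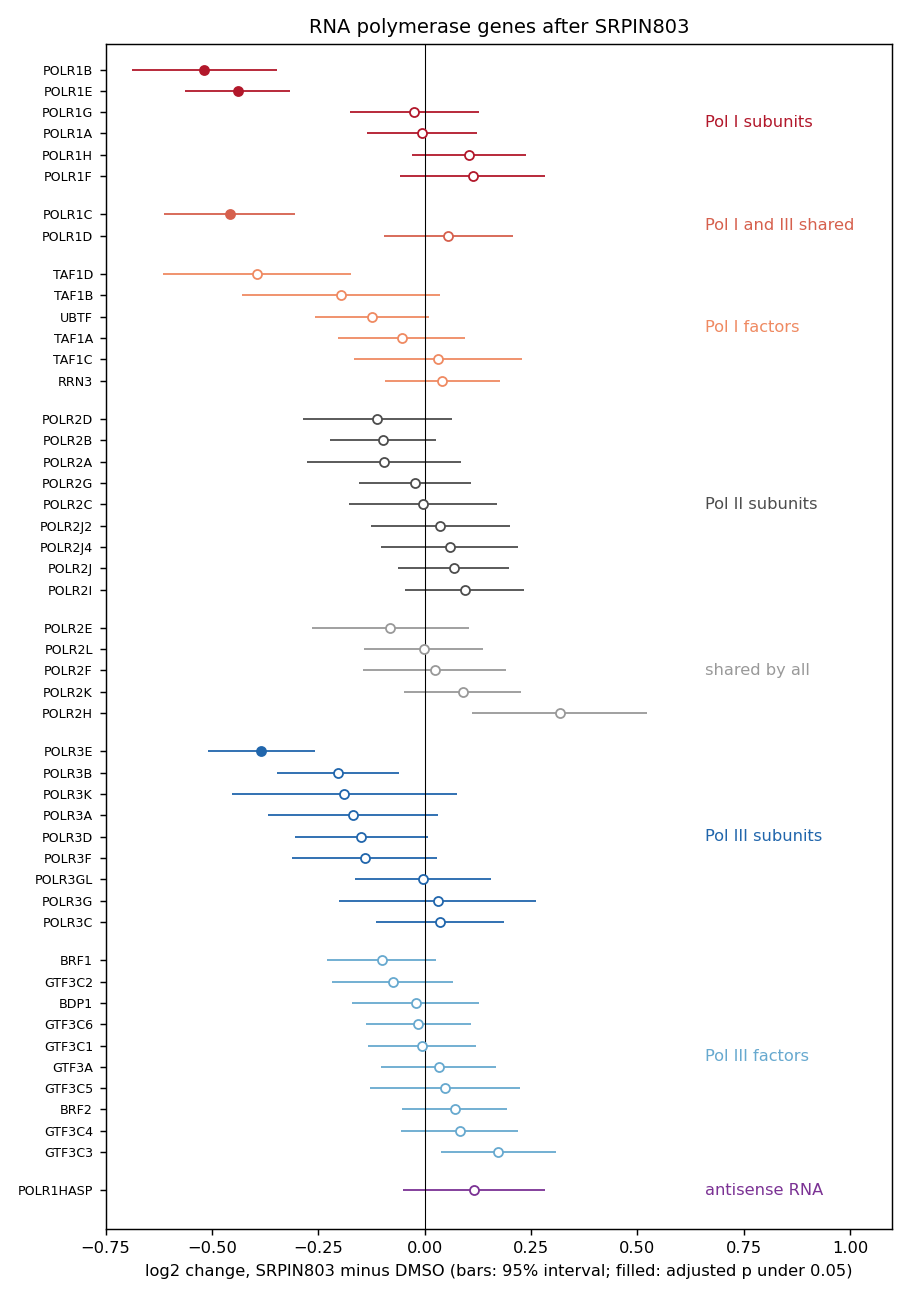
Log2 change (SRPIN803 minus DMSO, horizontal axis) of each of the 48 genes, with 95% confidence intervals, grouped by enzyme. Filled points passed an adjusted p under 0.05. POLR1B, POLR1E, POLR1C and POLR3E are the filled points, at -0.52 to -0.38. The 9 genes of the polymerase II class, with the pseudogene POLR2J4 among them, lie between -0.11 and 0.09.

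By enzyme, counting the shared subunits with each, 3 of 13 subunit genes of polymerase I fell and 2 of 16 of polymerase III fell. Of 14 for polymerase II, POLR2J4 counted among them, 0 were called. Over all genes 5.84% were called in either direction, 2.37% were called lower and 19.5% had an unadjusted p under 0.05. The polymerase II count at an unadjusted p under 0.05 was 1, the shared subunit gene POLR2H. Differences between the enzymes were not tested as such. Among the initiation factors, 0 of 6 for polymerase I and 0 of 10 for polymerase III were called by limma, with 1 in each group at an unadjusted p under 0.05.

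POLR1B encodes the second-largest subunit of polymerase I, which forms the catalytic centre together with POLR1A. Its values were 8.54, 8.61 and 8.71 in SRPIN803 replicates 1, 2 and 3, against 9.05, 9.22 and 9.15 in DMSO replicates 1, 2 and 3 (log2). No SRPIN803 array reached the lowest DMSO array. The log2 change was -0.52 ± 0.07 (adjusted p = 0.00961), a level 1.43-fold lower (95% interval 1.27 to 1.61). The call was lost without DMSO replicate 3, with an adjusted p = 0.0518 and the same direction, and held without any other array.

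POLR1E encodes a peripheral polymerase I subunit that pairs with POLR1G and takes part in initiation and elongation. Its values were 7.78, 7.79 and 7.77 in SRPIN803 and 8.20, 8.23 and 8.24 in DMSO. Its groups were the tightest of the 4 relative to the gap between them, and did not overlap. The log2 change was -0.44 ± 0.05 (adjusted p = 0.00557), a level 1.36-fold lower (1.24 to 1.48). Leaving out arrays 1 at a time never ended the POLR1E call, the highest adjusted p being 0.0368.

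POLR1C encodes a subunit found in polymerases I and III, where it dimerises with POLR1D and forms the platform on which the enzyme is assembled. Its values were 8.56, 8.51 and 8.44 in SRPIN803 and 9.05, 8.93 and 8.91 in DMSO. All SRPIN803 arrays were below all DMSO arrays. The log2 change was -0.46 ± 0.07 (adjusted p = 0.0104), a level 1.37-fold lower (1.23 to 1.53), and no array's omission ended the call (highest adjusted p = 0.0428). Its partner POLR1D had 11.15, 11.14 and 11.16 in SRPIN803 and 11.13, 11.16 and 10.99 in DMSO. These groups overlapped, and the change of 0.06 ± 0.06 did not pass (95% interval -0.09 to 0.21, adjusted p = 0.716), so the interval of POLR1D lay wholly above that of POLR1C (-0.61 to -0.30).

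POLR3E encodes a subunit of polymerase III that forms a dimer with POLR3D beside the catalytic core. Its values were 9.03, 9.08 and 9.08 in SRPIN803 and 9.44, 9.44 and 9.46 in DMSO. The groups were separate and narrow. The log2 change was -0.38 ± 0.05 (adjusted p = 0.00945), a level 1.30-fold lower (1.20 to 1.42). Without DMSO replicate 3 the adjusted p was 0.0553, and POLR3E stayed called without any other array. Without DMSO replicate 3, 2 of the 48 genes were called, POLR1C and POLR1E.

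**Figure D2:**
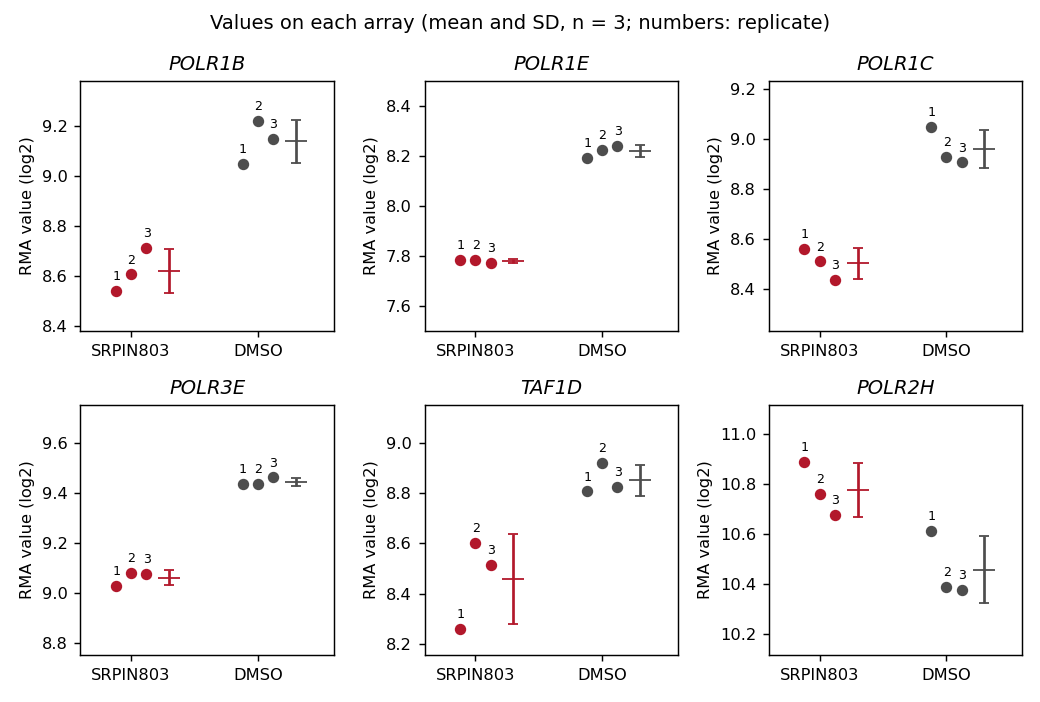
RMA values (log2, vertical axis, each panel spanning 1 log2 unit) on each array for the 4 called genes and for TAF1D and POLR2H, the nearest to the threshold on either side. Points are arrays with their replicate number, and bars give the mean and SD (n = 3). SRPIN803 arrays are at the left of each panel and DMSO arrays at the right, and in all 6 panels they do not overlap.

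The bases upstream of POLR1B, POLR1C and POLR3E, the called genes matched to the promoter table, are shown because these genes were lower on the same arrays. Each run is the 250 bases before the annotated gene start in RefSeq, build GRCh38.p14, written 5' to 3' on the gene's strand. Capitals mark matches, on either strand, to CCGGAAG, the core bound by ETS factors, in POLR1B and POLR1C, and to GTTCGANTC, which lies within the internal B box that TFIIIC binds in tRNA genes, in POLR3E.
POLR1B, chr2:112541786-112542035, plus strand: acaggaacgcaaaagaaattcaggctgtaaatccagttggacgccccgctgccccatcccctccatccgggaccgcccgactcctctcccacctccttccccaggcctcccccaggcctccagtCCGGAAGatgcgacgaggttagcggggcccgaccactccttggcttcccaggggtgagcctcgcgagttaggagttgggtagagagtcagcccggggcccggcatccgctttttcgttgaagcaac
POLR1C, chr6:43516839-43517088, plus strand: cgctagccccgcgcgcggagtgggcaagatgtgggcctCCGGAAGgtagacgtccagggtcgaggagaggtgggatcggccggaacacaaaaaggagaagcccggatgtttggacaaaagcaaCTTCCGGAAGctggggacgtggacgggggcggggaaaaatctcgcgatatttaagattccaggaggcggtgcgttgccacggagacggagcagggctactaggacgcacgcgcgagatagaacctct
POLR3E, chr16:22297159-22297408, plus strand: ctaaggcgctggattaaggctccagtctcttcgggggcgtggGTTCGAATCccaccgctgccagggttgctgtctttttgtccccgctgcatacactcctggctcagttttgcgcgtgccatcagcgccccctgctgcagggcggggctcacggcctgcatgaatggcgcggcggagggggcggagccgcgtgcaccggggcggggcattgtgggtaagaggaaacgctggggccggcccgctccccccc

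Promoters of 250 bases were matched by symbol for 38 of the 48 genes. CCGGAAG was present in 10 of the 38 (26.3%) and in 2407 of 27305 promoters of this length (8.82%). POLR1B held 1 match, starting 126 bases before the gene, and POLR1C held 3, of which 2 overlap on opposite strands. The E-box CACGTG, bound by MYC and related factors, was in 6 of the 38 (15.8%) and in 6.49% of all promoters, and was in 0 of the 3 called genes matched. The 6 were POLR1G, POLR3A, POLR3C, GTF3C2, GTF3C4 and GTF3C6, none of which was called. GCATGCG, within the NRF1 site, was in 4 of the 38 (10.5%) and in 3.57% of all promoters, and ACTACAA, within the ZNF143 site, was in 1 (2.63%) and in 2.64%. The 27305 promoters were not restricted to genes measured here, nor matched to the 38 by level. A match is a run of letters, not a bound site.

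The window before POLR3E holds part of another gene. RefSeq places a leucine tRNA gene, TRL-AAG2-4, across its first 63 bases, ending 187 bases before the start of POLR3E. tRNA genes are transcribed by polymerase III itself. GTTCGANTC, which was searched for after this sequence had been read, occurred in 2 of the 38 promoters, those of POLR3E and TAF1C, and in 52 of 27305 promoters (0.19%). No other of the 38 windows overlapped an annotated tRNA gene.

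The remaining polymerase I subunit genes were not called. POLR1A, the largest subunit, had 7.40, 7.44 and 7.44 in SRPIN803 and 7.41, 7.48 and 7.42 in DMSO. The groups overlapped, with a log2 change of -0.01 ± 0.06 (interval -0.14 to 0.12, adjusted p = 0.970). POLR1H, a small subunit involved in RNA cleavage, was at 9.43, 9.39 and 9.35 in SRPIN803, just above 9.33, 9.28 and 9.25 in DMSO, a change of 0.10 ± 0.06 that did not pass (adjusted p = 0.384). POLR1F, part of the stalk, was at 0.11 ± 0.07 (adjusted p = 0.474), or -0.06 with the mean of its probe sets, and POLR1G, the partner of POLR1E, by -0.02 ± 0.07 (adjusted p = 0.888). The 95% intervals of these 4 genes lay between -0.18 and 0.28. POLR1HASP, whose probe sets lie near or below the array median, was at 5.17, 5.08 and 5.03 in SRPIN803 and 5.05, 5.01 and 4.88 in DMSO (change 0.12 ± 0.07, adjusted p = 0.454).

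Among the polymerase I initiation factors the SL1 subunit gene TAF1D came closest to a call. TAF1D, which also hosts small nucleolar RNAs in its introns, had 8.26, 8.60 and 8.51 in SRPIN803 and 8.81, 8.92 and 8.83 in DMSO. The groups were separate, with SRPIN803 replicate 1 the lowest. The change of -0.39 ± 0.09 did not pass (adjusted p = 0.0553), and with any 1 array left out it stayed between -0.47 and -0.29 and uncalled. Another 2 probe sets name TAF1D together with its small nucleolar RNAs. They were also lower on every SRPIN803 array than on every DMSO array, by -0.31 ± 0.10 and -0.12 ± 0.07, without passing (adjusted p = 0.202 and 0.511 over all probe sets). UBTF, the factor that bends and holds open ribosomal DNA, had 7.63, 7.65 and 7.72 in SRPIN803 and 7.76, 7.82 and 7.79 in DMSO (change -0.12 ± 0.06, adjusted p = 0.292). RRN3, which links polymerase I to SL1 and is a target of growth signalling, was at 9.25, 9.31 and 9.30 in SRPIN803 and 9.19, 9.25 and 9.29 in DMSO, overlapping (0.04 ± 0.06, adjusted p = 0.768). TAF1B, TAF1A and TAF1C were at -0.20, -0.05 and 0.03, with adjusted p of 0.343 to 0.888.

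Of the 9 polymerase III subunit genes 7 had a lower mean in SRPIN803, 4 of them with groups that did not overlap. Over all genes 8678 of 19775 had a lower mean in SRPIN803, and 10.4% had every SRPIN803 array below every DMSO array. The median log2 change of the 9 genes was -0.15. POLR3B, the second-largest subunit, had 8.49, 8.55 and 8.44 in SRPIN803 and 8.65, 8.76 and 8.67 in DMSO. Its groups were separate, and the change of -0.20 ± 0.06 did not pass over all genes (adjusted p = 0.110). POLR3D, the dimer partner of POLR3E, had 7.58, 7.77 and 7.63 in SRPIN803 and 7.83, 7.82 and 7.78 in DMSO (-0.15 ± 0.07, adjusted p = 0.278).

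POLR3A, the largest subunit, had 8.19, 8.39 and 8.27 in SRPIN803 and 8.49, 8.31 and 8.55 in DMSO. These groups overlapped, with a change of -0.17 ± 0.09 (adjusted p = 0.343). POLR3F and POLR3K were at -0.14 and -0.19 (adjusted p = 0.355 and 0.436). POLR3C and the alternative paralogous subunits POLR3G and POLR3GL were at 0.04, 0.03 and -0.0043 (adjusted p = 0.831 to 0.983). The intervals of the 8 uncalled genes lay between -0.45 and 0.26.

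Class medians on each array show how even these shifts were. For each gene the mean of its DMSO arrays was subtracted, and the median over the class was taken. For polymerase III subunits this was -0.11, -0.06 and -0.18 in SRPIN803 replicates 1, 2 and 3, and -0.0099, 0.0091 and -0.03 in DMSO replicates 1, 2 and 3. All SRPIN803 arrays were below all DMSO arrays, with replicate 2 the nearest. For polymerase I subunits, the class with the most calls, the medians were 0.0060, 0.00081 and -0.05 in SRPIN803 and -0.01, 0.02 and -0.03 in DMSO, and overlapped. For polymerase II subunits the medians were 0.05, -0.0052 and -0.03 in SRPIN803 and 0.06, 0.0073 and -0.04 in DMSO, and overlapped. The polymerase I factors were at -0.07, -0.10 and -0.09 in SRPIN803 and -0.03, 0.02 and 0.0018 in DMSO, also without overlap. The class shared by polymerases I and III holds only 2 genes, POLR1C and POLR1D. Its medians were also lower, at -0.17, -0.20 and -0.23 in SRPIN803 and 0.06, 0.02 and -0.08 in DMSO. POLR1C was lower, at -0.46, while POLR1D was at 0.06 with overlapping groups. Medians of the polymerase III factors were higher, at 0.03, 0.02 and 0.02 in SRPIN803 and 0.01, 0.0048 and -0.0053 in DMSO. Of these 10 genes 5 had a higher mean in SRPIN803 and 5 a lower one. Their median log2 change was 0.01, and that of all genes was 0.02. The subunits shared by all the enzymes overlapped. No test was made of these medians.

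**Figure D3:**
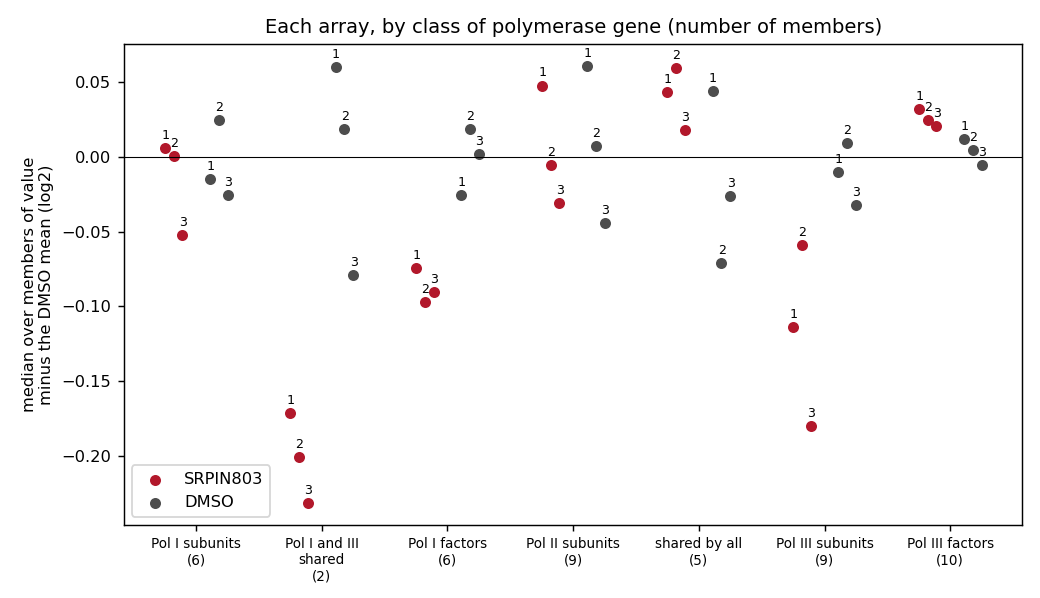
Median over the genes of a class of the value minus that gene's DMSO mean (log2, vertical axis), for each array, with the number of genes under each class. Red points are SRPIN803 arrays and grey points DMSO arrays, labelled by replicate. The SRPIN803 points of the polymerase III subunits (-0.18 to -0.06) lie below their DMSO points, and those of the polymerase II subunits (-0.03 to 0.05) lie among theirs. Those of the polymerase I factors and of the genes shared by polymerases I and III also lie below, and those of the polymerase III factors above.

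Polymerase II subunit genes showed no call. Of 9 genes, POLR2J4 included, 0 were called by limma and 0 had an unadjusted p under 0.05. Over all genes these shares were 5.84% and 19.5%. All 9 intervals lay between -0.29 and 0.23, within a 1.5-fold change either way. Intervals within 1.5-fold were also found for 18678 of 19775 genes and for all 9 polymerase III subunit genes. POLR2A, the largest subunit, whose repetitive tail is phosphorylated during transcription, had 9.02, 9.15 and 9.25 in SRPIN803 and 9.32, 9.21 and 9.18 in DMSO. The groups overlapped (-0.10 ± 0.08, adjusted p = 0.581). POLR2B, the second-largest subunit, had 12.17, 12.15 and 12.12 in SRPIN803, below 12.26, 12.25 and 12.22 in DMSO on every array, and the change of -0.10 ± 0.05 did not pass (adjusted p = 0.387). POLR2I, a small subunit involved in proofreading, changed by 0.09 ± 0.06 (adjusted p = 0.465).

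POLR2C, POLR2D, POLR2G, POLR2J, POLR2J2 and POLR2J4 were between -0.11 and 0.07, with adjusted p of 0.497 to 0.986. POLR2C and POLR2J form the platform that corresponds to POLR1C and POLR1D, and they were at -0.0036 ± 0.075 and 0.07 ± 0.06. The POLR2J copies are nearly identical, and the probe set of POLR2J is of a kind that can bind related sequences, so these genes cannot be separated with certainty.

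Of the 5 subunits shared by all the enzymes, 0 were called by limma and POLR2H alone had an unadjusted p under 0.05. POLR2H had 10.89, 10.76 and 10.68 in SRPIN803 and 10.61, 10.39 and 10.38 in DMSO. Every SRPIN803 array was above every DMSO array, with replicate 1 the highest in each group. The change of 0.32 ± 0.09 did not pass (interval 0.11 to 0.52, adjusted p = 0.0859). POLR2K, a zinc-binding subunit, was at 10.86, 10.94 and 10.85 in SRPIN803 and 10.84, 10.80 and 10.75 in DMSO (0.09 ± 0.06, adjusted p = 0.486). POLR2E, POLR2F and POLR2L were at -0.08, 0.02 and -0.0020.

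Of the 10 polymerase III factor genes 0 were called by limma and 1 had an unadjusted p under 0.05, with all intervals between -0.23 and 0.31. GTF3C3, a subunit of TFIIIC, which recognises tRNA promoters, had 9.88, 9.98 and 9.90 in SRPIN803 and 9.78, 9.72 and 9.74 in DMSO. The groups did not overlap, and the change of 0.17 ± 0.06 did not pass (adjusted p = 0.147). GTF3C1, the largest TFIIIC subunit, was at 8.91, 8.91 and 8.98 in SRPIN803 and 8.94, 8.93 and 8.93 in DMSO (-0.01 ± 0.05, adjusted p = 0.971).

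BRF1, the TFIIIB subunit used at tRNA and 5S genes, had 6.29, 6.27 and 6.27 in SRPIN803 and 6.35, 6.42 and 6.37 in DMSO (-0.10 ± 0.05, adjusted p = 0.378). BRF2, its counterpart at U6-type promoters, was at 0.07 ± 0.05 (adjusted p = 0.542). BDP1, which completes TFIIIB, and GTF3A, which binds the 5S gene, were at -0.02 and 0.03. GTF3C2, GTF3C5 and GTF3C6 were at -0.07, 0.05 and -0.01.

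The brightest probe set did not always speak for the whole gene. The 48 genes had 114 probe sets of their own, 35 genes more than 1. Over all probe sets naming 1 gene, 3.04% were called, and of the 114, 8 were called lower and 0 higher (7.02%), in 5 genes. For POLR1B 3 of 4 probe sets were called, at -0.52, -0.45 and -0.47, and the fourth was at -0.23 ± 0.09 (adjusted p = 0.265). Both POLR1C probe sets were called, the other at -0.38 ± 0.07 (adjusted p = 0.0380). The dimmer probe sets of POLR1E were at -0.24 and -0.19, uncalled, and with the mean of all its probe sets POLR1E was not called (-0.29, adjusted p = 0.0898). Those of POLR3E were at -0.25, -0.04 and 0.18, uncalled. The probe sets at -0.04 and 0.18 had mean levels of 5.24 and 4.75, below the array median. With the mean of all its probe sets POLR3E was not called either (-0.13, adjusted p = 0.252).

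GTF3C4, a TFIIIC subunit with histone acetyltransferase activity, was the fifth gene and is named here after its values were seen. Its brightest probe set was at 8.59, 8.63 and 8.62 in SRPIN803 and 8.57, 8.56 and 8.46 in DMSO, a change of 0.08 ± 0.06 in the fit over genes (adjusted p = 0.526). Its next probe set was at 7.004, 7.07 and 7.09 in SRPIN803 and 7.39, 7.43 and 7.44 in DMSO, a change of -0.37 ± 0.06 that passed over all probe sets (adjusted p = 0.0271). A dimmer one, at 5.12, 5.46 and 5.45 in SRPIN803 and 5.82, 5.55 and 5.66 in DMSO, was at -0.33 ± 0.11 (adjusted p = 0.189). SRPIN803 and DMSO arrays were separate in all of these, with the brightest in the opposite direction from the other two. POLR1A showed a milder case, with its dimmer probe sets at -0.17 ± 0.09 and -0.19 ± 0.07, neither called. In POLR1F the brightest probe set was at 0.11 and the dimmer at -0.24 ± 0.06, uncalled (adjusted p = 0.0892 over all probe sets). The dimmer POLR1F probe set was lower on every SRPIN803 array than on every DMSO array.

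**Figure D4:**
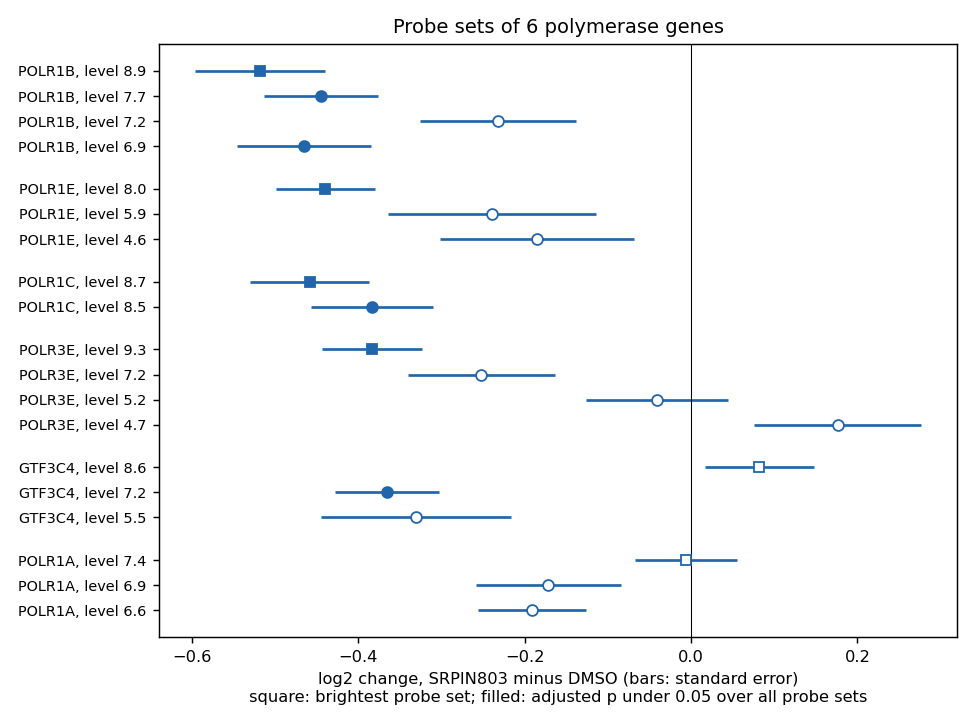
Log2 change (SRPIN803 minus DMSO) of every probe set naming POLR1B, POLR1E, POLR1C, POLR3E, GTF3C4 or POLR1A alone, with standard errors and the mean level over all arrays beside each name. Squares are the brightest probe sets and filled symbols passed over all probe sets. In GTF3C4 the brightest probe set is at 0.08 and the others at -0.37 and -0.33.

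Genes that act with the polymerases were counted from lists by role. Among polymerase I regulators and termination factors 2 of 11 fell and 0 rose, against 2.37% of all genes called lower and 3.46% called higher. NOLC1, a nucleolar phosphoprotein that is a substrate of CK2, had 11.03, 10.96 and 10.99 in SRPIN803 and 11.31, 11.34 and 11.40 in DMSO (-0.36 ± 0.06, adjusted p = 0.0144). It lost the call without DMSO replicate 2 or 3 or SRPIN803 replicate 3 (adjusted p up to 0.0745). SIRT7, a nucleolar deacetylase known to bind polymerase I, had 7.76, 7.93 and 8.03 in SRPIN803 and 8.22, 8.26 and 8.26 in DMSO (-0.34 ± 0.08, adjusted p = 0.0496), and was uncalled whichever array was omitted (highest adjusted p = 0.164). The list's median was -0.04.

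Among all genes 2.37% were called lower and 3.46% higher. Of 11 polymerase III regulators and snRNA gene factors 1 fell and 0 rose. It was ZNF143, an activator of snRNA and other genes, at 8.20, 8.27 and 8.35 in SRPIN803 and 8.76, 8.82 and 8.71 in DMSO. The change was -0.49 ± 0.07 (adjusted p = 0.00770) and held whichever array was omitted (highest adjusted p = 0.0394), but not with the mean of all its probe sets (-0.18, adjusted p = 0.154). The list's median was -0.04.

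Of 28 general initiation factors of polymerase II 3 were called higher and 1 was called lower, with a median of 0.05. Among all genes 3.46% were called higher and 2.37% lower, with a median of 0.02. GTF2H3, a TFIIH subunit, had 9.28, 9.11 and 9.22 in SRPIN803 and 8.85, 8.89 and 8.93 in DMSO (0.31 ± 0.07, adjusted p = 0.0366). CCNH, the cyclin of the TFIIH kinase, rose by 0.30 ± 0.06 (adjusted p = 0.0254) and GTF2B, which is TFIIB, by 0.30 ± 0.06 (adjusted p = 0.0254). TAF4, a scaffold of TFIID named here after its values were seen, was at -0.26 ± 0.06 (adjusted p = 0.0495). CCNH, GTF2B and TAF4 were uncalled whichever array was omitted, and GTF2H3 with any but SRPIN803 replicate 2 (adjusted p up to 0.150 over these 4 genes). With the mean of all probe sets GTF2H3 (0.20, adjusted p = 0.239) and TAF4 (-0.20, adjusted p = 0.300) were not called either.

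Of 12 genes for assembly and nuclear import of the polymerases 2 were called higher and 0 lower, with a median of 0.03. Among all genes 3.46% were called higher and 2.37% lower. By limma 7 of the 12 had an unadjusted p under 0.05 (19.5% of all genes). The list moved both ways. Its groups did not overlap in 4 genes higher and 5 lower in SRPIN803, against 15.2% and 10.4% of all genes. RPAP3, a chaperone adaptor that helps to assemble polymerase II, had 10.09, 10.06 and 9.96 in SRPIN803 and 9.68, 9.70 and 9.68 in DMSO (0.35 ± 0.06, adjusted p = 0.0188). GPN3, a GTPase needed for import of polymerase II, had 10.15, 9.86 and 9.96 in SRPIN803 and 9.64, 9.62 and 9.60 in DMSO (0.37 ± 0.08, adjusted p = 0.0414). The groups did not overlap in either gene. RPAP3 lost the call with any array but SRPIN803 replicate 3 left out and GPN3 with any but SRPIN803 replicate 2 (adjusted p up to 0.0845 and 0.147). With the mean of all its probe sets RPAP3 was at 0.25 and uncalled (adjusted p = 0.0763).

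**Figure D5:**
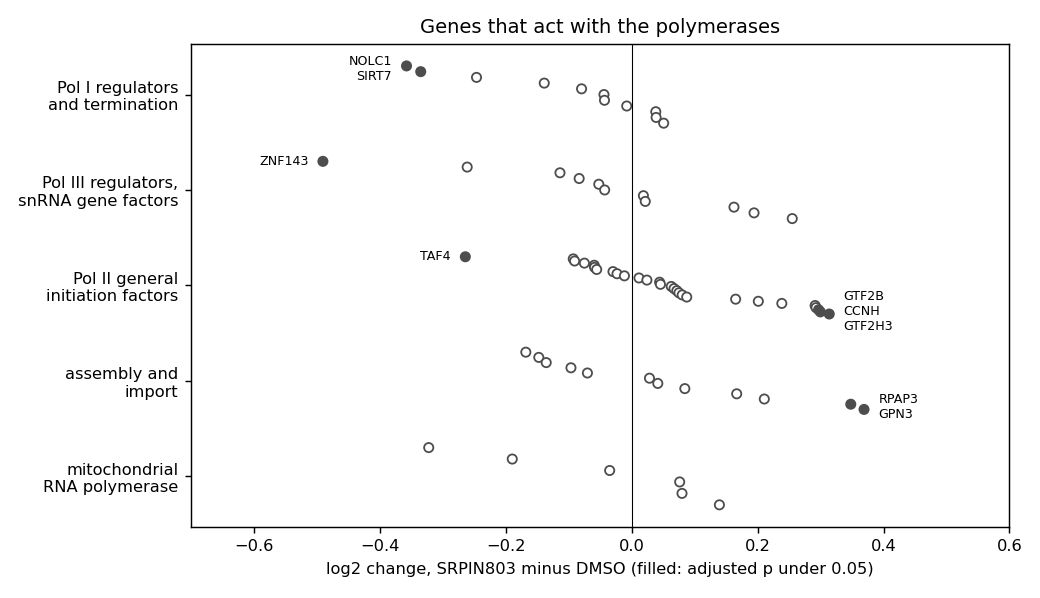
Log2 change (SRPIN803 minus DMSO, horizontal axis) of the genes in 5 lists that act with RNA polymerases, 1 point per gene. Filled, named points passed an adjusted p under 0.05. The filled points of the polymerase I and III lists are at -0.49 to -0.34, and those of the assembly list at 0.35 and 0.37.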

How the data were processed

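Values are the authors' deposited log2 values, 1 per probe set and array, and RMA is the method named per the submitters' processing notes. It corrects background, normalizes between arrays and summarises probes, which hides changes in total RNA per cell and compresses changes of dim probe sets. For its software and version, nothing is stated in the labels. The deposited log2 values entered the tests as they were. Labelling started with 100 ng of total RNA, per the labels' protocols.

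Of 54675 probe sets, 41091 named 1 gene by the platform's annotation. The groups were compared two-sided by limma 3.58.1 (R 4.3.3), using lmFit and eBayes without covariates and with 4 residual degrees of freedom. P-values were adjusted by Benjamini-Hochberg over 19775 genes, or over 41091 probe sets. The few results on probe sets naming several genes come from a fit over all non-control probe sets. The threshold was an adjusted p of 0.05. Log2 changes are given ± limma's standard error. With 3 arrays a group, exact permutation could give no p below 0.1 and was not used. The number of arrays limits the precision. The fit was tested on simulated data.

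Replicate numbers were checked as pairs: correlations of same-numbered arrays' deviations from their group means were 0.179, -0.0608 and 0.107, so the numbers were not treated as pairs. The members and lists were chosen with earlier results of these data known. The genes named were every called member, the 2 members of each class with the smallest p among those not called, 9 members always named (the largest 2 subunits of each enzyme, UBTF, RRN3 and GTF3C1), and up to 3 called genes of each other list, or, in a list with no call, the 1 gene of smallest p. The rest are given by their ranges or their changes. Alternatives covered the block, arrays left out, filters, the probe set per gene, normalization, the variance model, array weights and the threshold. Promoters are RefSeq's. Figures were made in Python 3.11.15 with matplotlib 3.10.9.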

Additional observations from a re-analysis of the deposited data

Results flagged for a closer look

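POLR2M, a polymerase II subunit that was first known as Gdown1, was not among the 48 genes because each of its probe sets also names a neighbour. The probe set naming MYZAP, GCOM1 and POLR2M drew attention as a signal outside the main comparison. It had 7.55, 7.72 and 7.74 in SRPIN803 and 7.27, 7.19 and 7.32 in DMSO, a log2 change of 0.41 ± 0.08 (limma over all probe sets other than controls, adjusted p = 0.0486). Another 2 probe sets naming GCOM1 and POLR2M were also higher on every SRPIN803 array, by 0.25 ± 0.08 and 0.15 ± 0.07, and did not pass (adjusted p = 0.205 and 0.333). A dim one was at -0.03 and overlapped. Which of the named genes the signal came from was not tested.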

How the results depend on the processing

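No called gene changed sign under the alternatives run. Some uncalled ones did, among them GTF3C4 (-0.20) and POLR1F (-0.06) with the mean of all probe sets, and with 1 array left out the median of the polymerase I subunits ran from -0.03 to 0.0034 and that of the subunits shared by all enzymes from -0.01 to 0.08. With 1 array left out in turn, 2 to 4 of the 48 genes were called lower and 0 higher, with 1 to 2 of the polymerase I subunits and 0 to 1 of the polymerase III subunits, and the count of all genes called higher was 190 to 417 (685 with every array) and of all genes called lower 134 to 301 (469). Such fits have fewer arrays. With the replicate block 424 genes were called higher and 265 lower, and the 4 of the 48 were called, as were NOLC1 (adjusted p = 0.0475) and ZNF143 (0.0361). The block left 0 of the polymerase II initiation factors called (CCNH 0.0585, GTF2B 0.0652, GTF2H3 0.0780, TAF4 0.0791), 0 of the assembly genes (RPAP3 0.0509, GPN3 0.0667), and not SIRT7 (0.0690). Same-numbered arrays correlated at 0.179, -0.0608 and 0.107, and 1 of 3 SRPIN803 arrays correlated best with its own number. Among genes at or above the median level 1106 were higher and 838 lower, with 6 of the 48 lower (TAF1D and POLR3B added, so 1 polymerase I factor and 2 polymerase III subunits) and 2 higher (POLR2H and GTF3C3, 1 shared subunit and 1 polymerase III factor). Above the 75th percentile, where 24 of the 48 were tested, 1 was lower (POLR3E) and 2 were higher (POLR2H and GTF3C3, 1 in each class). POLR1B, POLR1C and POLR1E lie below this level and were not tested, so 0 of their classes could be called lower there. With the mean of all probe sets 2 were lower, 1 polymerase I subunit and 0 polymerase III subunits. A fit over all probe sets called 418 genes higher and 305 lower. With a variance trend 1165 were higher and 800 lower, with TAF1D (1 polymerase I factor) lower and 2 of the 48 higher (POLR2H and GTF3C3, 1 in each class). With a robust trend 1213 were higher and 823 lower, with TAF1D lower (1) and POLR2H higher (1). Cyclic loess and array weights each added TAF1D (1 polymerase I factor). At an adjusted p under 0.01, 164 were higher and 121 lower, with POLR1B, POLR1E and POLR3E called and POLR1C, shared by polymerases I and III, not (0 of its class). At one under 0.1, 1204 were higher and 787 lower, with TAF1D lower (1) and POLR2H higher (1). The causes of these moves were not tested. Median centring, repeated quantile normalization and leaving out cross-binding probe sets gave the same 4 of the 48. Dim probe sets and 3 arrays a group limit what could be detected.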

Other observations

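Mitochondria have a polymerase of their own, encoded in the nucleus. Of 6 genes for mitochondrial transcription 0 were called by limma at an adjusted p under 0.05 and 3 had an unadjusted p under 0.05. Among all genes these shares were 5.84% and 19.5%. The 3 were not all in the same direction, and of the 6 genes 3 had a higher mean in SRPIN803 and 3 a lower one. POLRMT, the polymerase itself, had 6.92, 7.08 and 7.04 in SRPIN803 and 7.29, 7.27 and 7.45 in DMSO. Every SRPIN803 array was below every DMSO array, and the log2 change of -0.32 ± 0.08 did not pass (adjusted p = 0.0507). It was called in 7 of 11 alternatives that kept all arrays at the same threshold, and with the mean of all its probe sets it was at -0.08 (adjusted p = 0.625). With 1 array left out it was not called in any of 6 fits.

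MYC, which activates genes of the polymerase I and III systems, was at 11.40, 11.46 and 11.33 in SRPIN803 and 11.37, 11.39 and 11.32 in DMSO, and the groups overlapped (0.04 ± 0.06, adjusted p = 0.800). MAF1, a repressor of polymerase III, was at 0.02 ± 0.08 (adjusted p = 0.920). Both are named here after their values were seen.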
